A study of Mus musculus with 20 samples.

Results

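Zinc transporters and metallothioneins, the genes that move zinc across membranes and bind it inside cells, were followed in mice in the adBNST, the anterodorsal part of the bed nucleus that lies along the stria terminalis. The bed nucleus is a small forebrain region of mostly GABAergic neurons that is known for its part in stress and anxiety. The 10 genes were chosen by name: the exporters Slc30a1, Slc30a3, Slc30a9 and Slc30a10, the importers Slc39a1, Slc39a10 and Slc39a14, and the metallothioneins Mt1, Mt2 and Mt3. Slc30a1 was put on the list because its level differed between stressed and control females, so that difference is described here with no test. Counts for 9 of the 10 genes, among 12988 genes in all, were analysed, and Slc30a3 was not analysed here.

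RNA was sequenced from 4 groups of mice: female controls, stressed females, male controls and stressed males. Mice entered the experiment at 7 to 9 weeks of age. Stressed mice went through chronic variable mild stress (CVMS), a 6 week schedule of changing mild stressors, and were killed under ketamine 1 hour after the last of them, wet bedding. Control mice were kept without the schedule, and ketamine was used in all 4 groups. Each group had 15 mice, and tissue of 3 mice was pooled for each library, so there were 5 libraries per group and 20 in all. The strain is not given in the sources used here. Where p-values are given, they measure the spread between pools of 3 mice, which is smaller than the spread between single mice.

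Libraries held from 2707881 to 33595388 counts. The shallowest, female control 4, gave the lowest count behind any value of the 9 genes, 79 reads for Slc39a1. All 10 markers of the region's GABA neurons were measured in every library, with summed levels of 2783 to 3368 CPM (each count as its share of the library, scaled with TMM factors). Of 8 markers of cortical and hippocampal glutamatergic neurons, 2 were measured, with summed levels of 6.40 to 28.7 CPM. Of 9 markers of thalamic neurons, 8 were measured, with summed levels of 183 to 408 CPM. Stressed female 2 had the highest sum of both lists and the lowest Slc30a1 level of the 20 libraries, 48.3 CPM. Female control 3 had the next highest sums (25.5 and 361 CPM), with Slc30a1 at 60.4 CPM. Markers of striatal neurons, which lie beside the region, were all lower in male controls than in female controls (12 of 12 genes, median log2 difference -0.53). Of these, edgeR called 0, where it called 0.747% of all genes. The striatal markers were all higher in stressed than in control males (12 of 12 genes, median 0.57, 0 called, where 0.00770% of all genes were). In tissue RNA, fewer cells of a type and less RNA per cell cannot be told apart.

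Free zinc in cells is kept very low. When it rises, the transcription factor MTF-1 binds metal response elements in promoters and raises transcription of Mt1, Mt2 and Slc30a1, whose products bind or export the metal. Mt1 and Mt2 are also known to be induced by glucocorticoids, the hormones of the stress response, and Mt3 is a form enriched in brain that responds little to metals. Other metals share these carriers: the Slc30a10 protein exports manganese, and the Slc39a14 protein imports manganese and iron as well as zinc.

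The promoters of Mt1, Mt2 and Slc30a1 are shown because the motif for MTF-1 is what ties these genes together as metal-responsive. That of Mt3, which responds little to metals, is shown beside them. Each window holds the 250 bases before the RefSeq start of the gene (GRCm38.p6), read 5′ to 3′ on the plus strand, on which all 4 genes lie. Capitals mark matches to the metal response element core, searched as TGCACNC and TGCGCNC on both strands, so a match on the minus strand appears as its reverse complement.
Mt1, chr8:94178839-94179088: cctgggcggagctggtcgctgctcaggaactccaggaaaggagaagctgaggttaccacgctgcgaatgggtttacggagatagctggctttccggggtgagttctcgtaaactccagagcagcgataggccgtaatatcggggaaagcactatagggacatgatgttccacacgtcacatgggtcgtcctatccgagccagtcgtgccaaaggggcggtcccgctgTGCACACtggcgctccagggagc
Mt2, chr8:94172368-94172617: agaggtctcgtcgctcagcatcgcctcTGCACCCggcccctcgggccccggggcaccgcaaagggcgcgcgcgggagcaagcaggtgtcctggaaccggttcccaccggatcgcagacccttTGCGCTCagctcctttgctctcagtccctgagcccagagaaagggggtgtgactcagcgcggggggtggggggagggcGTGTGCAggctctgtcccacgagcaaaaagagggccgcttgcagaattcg
Mt3, chr8:94152357-94152606: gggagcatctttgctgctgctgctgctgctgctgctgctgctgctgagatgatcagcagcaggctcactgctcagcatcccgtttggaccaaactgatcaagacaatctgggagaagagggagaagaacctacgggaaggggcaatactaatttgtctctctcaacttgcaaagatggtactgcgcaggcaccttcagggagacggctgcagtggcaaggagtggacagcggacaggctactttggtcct
Slc30a1, chr1:191906531-191906780: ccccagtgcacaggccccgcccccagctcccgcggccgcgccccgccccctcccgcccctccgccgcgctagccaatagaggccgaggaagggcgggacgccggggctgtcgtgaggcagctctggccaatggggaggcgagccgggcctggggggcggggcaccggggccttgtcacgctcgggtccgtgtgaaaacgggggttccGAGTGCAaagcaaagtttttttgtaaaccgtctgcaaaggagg
The Mt2 window held 3 matches, those of Mt1 and Slc30a1 held 1 each, and that of Mt3 held 0. Bases past the RefSeq start were not searched, so these are not counts of all elements of a gene. Among the other members, Slc30a10 held 3 matches, and Slc30a9, Slc39a1 and Slc39a10 held 0. Windows of the same length from all genes held at least 1 match in 21.41% of 32851 windows and at least 3 in 1.263%. The glucocorticoid response element motif searched as TGTTCT on either strand was in 0 of the 9 windows found for 8 of the members, against 16.08% of all windows. Only the 250 bases before each start were searched. Elements farther away could not be found, so the 0 does not show that a gene lacks them. Such a match is a stretch of letters and not a measured binding site, and starts differ between annotations.

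The 9 genes differed widely in level, and after division by length the metallothioneins stood far above the transporters. In CPM without that division, Slc39a10 (165 CPM) and Slc30a9 (157) were above Mt1 (117), Mt3 (109) and Mt2 (67.2). Per kilobase of the longest annotated transcript, Mt3 stood at 203 ± 33.1 CPM per kb (SD, n = 20 libraries), Mt2 at 132 ± 13.9 and Mt1 at 108 ± 13.7. Slc39a10 followed at 30.1 ± 1.63 CPM per kb, Slc30a9 at 27.5 ± 1.31, Slc39a1 at 12.8 ± 0.706 and Slc30a1 at 10.7 ± 0.831. Slc30a10, at 7.17 ± 0.530 CPM per kb, and Slc39a14, at 6.38 ± 0.560, were lowest. Neighbours in this order overlapped in range over the 20 libraries except for Mt1 and Slc39a10, Slc30a9 and Slc39a1, and Slc30a1 and Slc30a10. The order depends on the length used. Over all annotated exons together, Mt2 (114 ± 12.1 CPM per kb) came before Mt3 (102 ± 16.6), and Slc30a9 (12.7 ± 0.607) fell beside Slc39a1 (12.8 ± 0.706).

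**Figure D1:**
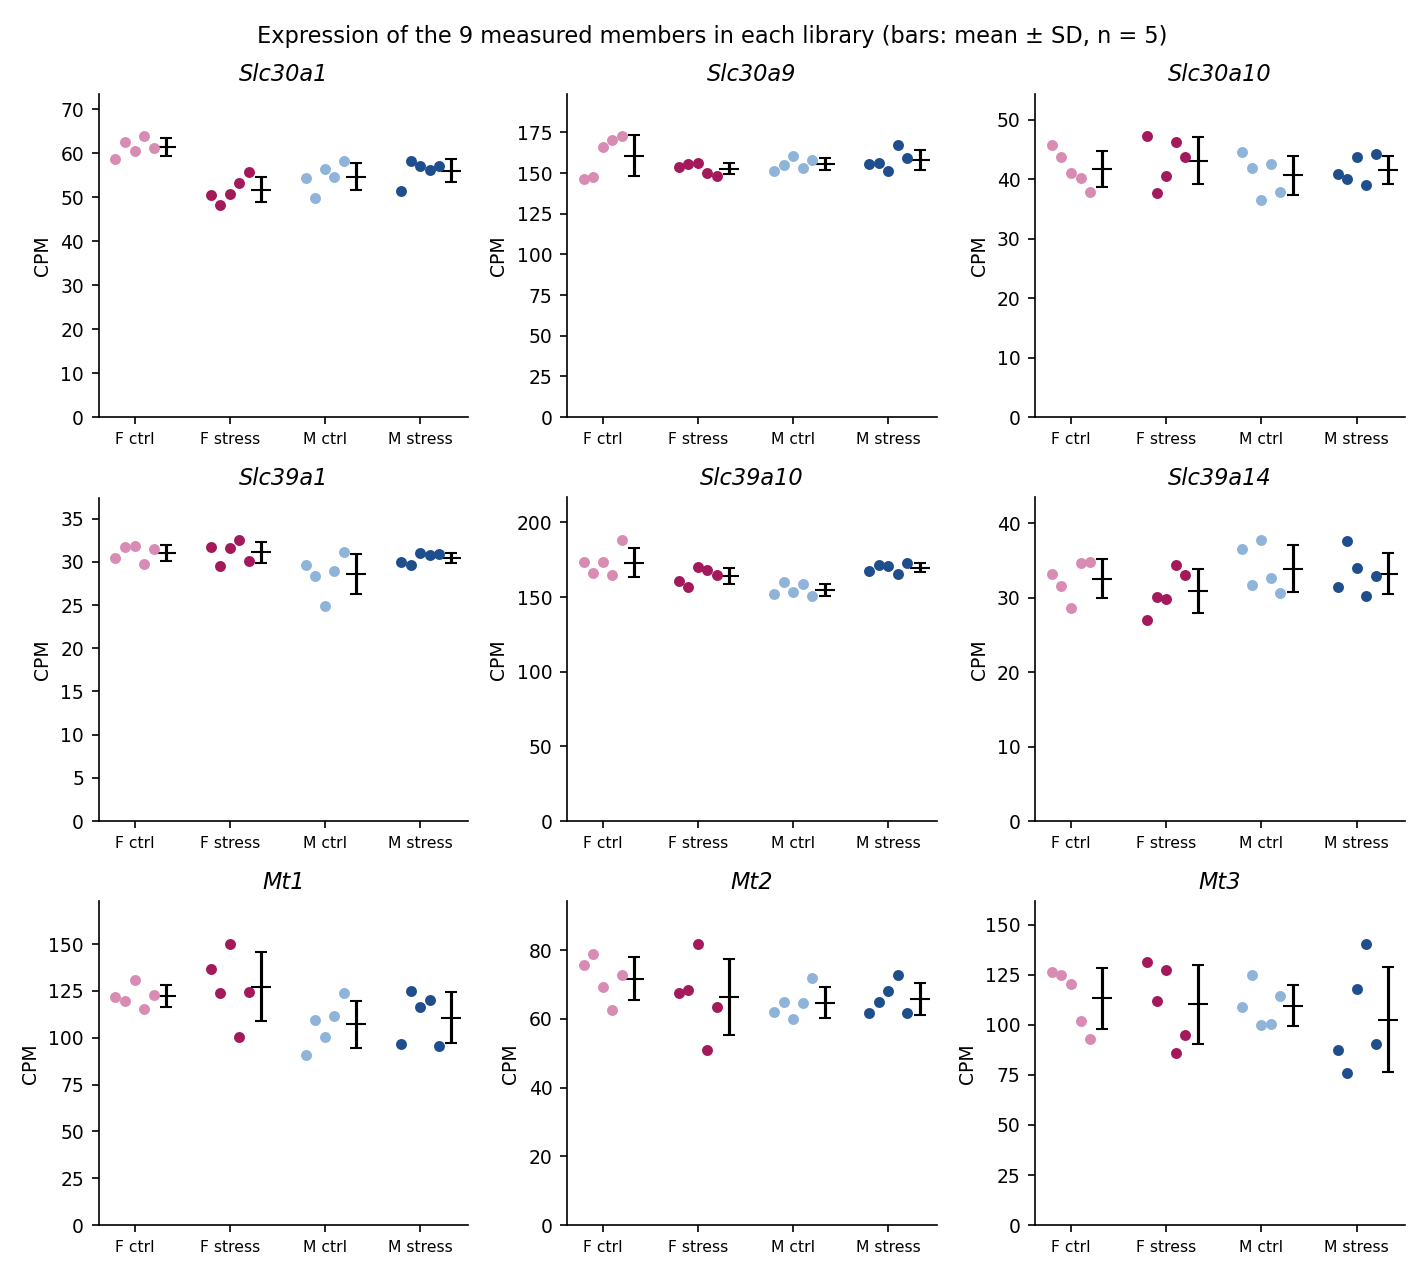
Levels of the 9 genes in CPM (vertical axes, from 0) in each of the 20 libraries, by group (F, female; M, male; ctrl, control), with the mean ± SD of 5 libraries as a black bar. The Slc30a1 libraries of female controls (58.7 to 64.0 CPM) lie above those of stressed females (48.3 to 55.8 CPM), and Mt3 spreads most, from 76.0 to 140.5 CPM.

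The exporters come first, and among them Slc30a1, which encodes ZnT1, the zinc exporter of the plasma membrane. The gene lies on chr1:191906767-191913247 (GRCm38, plus strand), and 468 of its exon bases are shared with 1700034H15Rik on the opposite strand. Its levels in the 5 female control libraries were 58.7, 62.6, 60.4, 64.0 and 61.3 CPM, and in the 5 stressed female libraries 50.6, 48.3, 50.8, 53.1 and 55.8 CPM. Every stressed library was below every control library, in the contrast for which the gene was chosen. Male control libraries stood at 54.4, 49.9, 56.4, 54.5 and 58.2 CPM, and stressed male libraries at 51.5, 58.4, 57.1, 56.2 and 57.2 CPM. The male groups overlapped each other and the stressed females, and every male library was below every female control library.

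Group means of Slc30a1 were 61.4 ± 2.02 CPM (SD, n = 5) in female controls, 56.1 ± 2.66 in stressed males, 54.7 ± 3.09 in male controls and 51.7 ± 2.84 in stressed females. The fitted log2 difference between stressed and control females was -0.24 (SE 0.05), a level 15.4% lower, and it ranged from -0.27 to -0.21 as each library in turn was left out. In males, where the gene was not chosen, the stress difference was 0.04 (SE 0.05, adjusted p = 0.819, edgeR quasi-likelihood test), with a 95% interval from -4.63% to 10.2%. The male and the female value were 0.28 (SE 0.07) apart on the log2 scale. That difference, and those between the sexes (-0.16, SE 0.05, in controls and 0.12, SE 0.05, in stressed mice), share libraries with the contrast that chose the gene and carry no test.

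Slc30a1 varied together with genes of blood vessel endothelium. Once group means were removed, the 5 genes most like it over the 20 libraries by Pearson's r of log2 CPM were Rassf1 (0.79), Pecam1 (0.79), Filip1l (0.75), Ptprb (0.73) and Cd93 (0.71). Pecam1, Ptprb and Cd93 encode surface proteins of endothelial cells, and Rassf1 encodes a Ras association domain protein. Pecam1 is also on the list of 9 endothelial markers used for a score, the mean log2 CPM of the list centred on 0. The score was related to Slc30a1 after these genes had been seen, so r is a description: within groups r was 0.71 and rho 0.73, r was positive in 4 of 4 groups, and r was 0.52 without the 2 libraries of most extreme score.

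The endothelial markers also differed between the groups. Their score was 0.10 ± 0.058 (SD, n = 5) in female controls, 0.017 ± 0.065 in stressed males, -0.026 ± 0.069 in stressed females and -0.089 ± 0.077 in male controls. Summed levels of the 9 markers were 260 to 292 CPM in female controls, 255 to 284 in females under stress, 237 to 269 in male controls and 262 to 293 in stressed males, and 0 of the 9 were at 0 in any library. Of the 9 markers, 6 were lower in stressed than in control females (median -0.11, 0 called, where 0% of all genes were). In male against female controls 8 were lower (median -0.12, 1 called, where edgeR called 0.747% of all genes). For stress in males 8 were higher (median 0.13, 0 called, where 0.00770% of all genes were). The Slc30a1 difference was 0.04 there. With the score as a covariate, the Slc30a1 difference between stressed and control females was -0.16, and the difference between male and female controls was -0.030. The difference of the stress effects between the sexes was then 0.12, and the stress difference in males was -0.042. All 10 oligodendrocyte markers were also lower in stressed females (median -0.22, 0 called, where 0% of all genes were). With their score as a covariate the Slc30a1 value was -0.24. Of 10 microglia markers, 9 were lower in stressed females too (median -0.11, 0 called, again beside 0% of all genes). Their score was not used as a covariate. The part of any of these cell types in the Slc30a1 levels was not tested further.

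**Figure D2:**
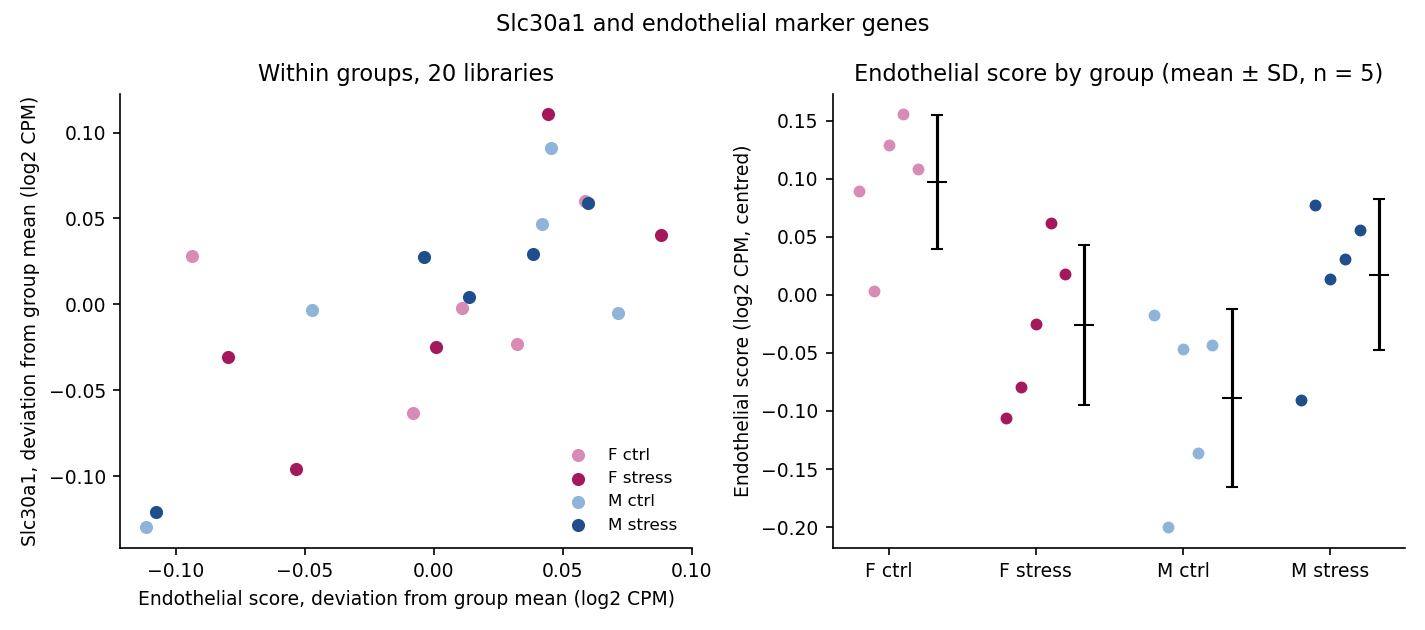
Left, Slc30a1 (vertical axis) against the endothelial score (horizontal axis), both as deviations from the group mean in log2 CPM, 1 point per library. Right, the score in each library by group with its mean ± SD (n = 5). Libraries with a higher score had more Slc30a1 RNA within groups (r = 0.71), and the mean score was highest in female controls (0.10).

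Slc30a9, whose product exports zinc from mitochondria, was the steadiest of the 9 genes, with a coefficient of variation of 4.79% over the 20 libraries. It lies on chr5:67306955-67358443 (plus strand). Libraries ranged from 146.3 to 173.0 CPM in female controls, 148.0 to 156.3 in females under stress, 151.5 to 160.7 in male controls and 151.4 to 167.3 in stressed males. The groups overlapped in every comparison. The stress difference in males was 0.02 on the log2 scale (SE 0.05, adjusted p = 0.916, edgeR), with a 95% interval from -5.29% to 8.65%. Male and female controls differed by -0.04 (SE 0.05, adjusted p = 0.767), and stressed and control females by -0.07 (SE 0.05), the last given without a test.

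Slc30a10 lies on chr1:185454848-185468762 (plus strand) and shares 533 exon bases with Gm2061 on the opposite strand. Its libraries ranged from 38.0 to 45.7 CPM in female controls, 37.8 to 47.3 in females under stress, 36.6 to 44.6 in male controls and 39.0 to 44.3 in stressed males. All 4 ranges overlapped. The stress difference was 0.03 in males (SE 0.07, adjusted p = 0.903, edgeR) and 0.03 in females (SE 0.07), and the difference between male and female controls was -0.05 (SE 0.07, adjusted p = 0.815).

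Among the importers, Slc39a10, which encodes the plasma membrane zinc importer ZIP10, came closest to the threshold of the tests. The gene lies on chr1:46807544-46892852 (minus strand). Male control libraries stood at 151.9, 160.0, 153.3, 158.6 and 150.7 CPM, and stressed male libraries at 167.7, 171.7, 170.8, 165.4 and 172.8 CPM. Every male control library was below every stressed male library. Female control libraries stood at 173.3, 165.8, 173.3, 164.5 and 188.3 CPM, all above the male controls, and stressed female libraries at 160.8, 156.6, 170.2, 167.9 and 165.0 CPM. Female controls and stressed females overlapped, and so did stressed females and stressed males.

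Group means of Slc39a10 were 173 ± 9.48 CPM (SD, n = 5) in female controls, 170 ± 3.06 in stressed males, 164 ± 5.47 in stressed females and 155 ± 4.12 in male controls. It was 9.57% higher in stressed than in control males, a log2 difference of 0.13 (SE 0.04) that did not pass the test (unadjusted p = 0.00416, adjusted p = 0.127, edgeR). In male controls it was 10.6% lower than in female controls, a difference of -0.16 (SE 0.04) that did not pass either (unadjusted p = 0.000800, adjusted p = 0.0654). The 2 differences share the male controls and are not independent. The stress effects of the sexes were 0.21 apart (SE 0.06, unadjusted p = 0.00161, adjusted p = 0.273), and in stressed mice the sexes differed by 0.05 (SE 0.04, adjusted p = 0.854). With DESeq2 the first pair of differences did pass, at adjusted p = 0.0477 and 0.0113. The difference between male and female controls also passed in edgeR with an oligodendrocyte score (adjusted p = 0.0469) or an astrocyte score (adjusted p = 0.0207) as a covariate. Over all alternatives with the 20 libraries or the compared groups, adjusted p ran from 0.0477 to 0.793 for stress in males and from 0.0113 to 0.997 for male against female controls, with the direction kept. Striatal markers were low in the male control libraries, but not only there. Summed over 12 genes they stood at 2416 to 3016 CPM in male controls and 3385 to 5202 in stressed males. They stood at 2556 to 4606 CPM in female controls and 2490 to 5165 in stressed females. The lowest female sums were those of female control 3 (2556 CPM, Slc39a10 at 173.3) and stressed female 2 (2490 CPM, Slc39a10 at 156.6). With the striatal score as a covariate, Slc39a10 differed by 0.090 between stressed and control males (adjusted p = 0.793, edgeR) and by -0.13 between male and female controls (adjusted p = 0.251). The part of striatal tissue in these values was not tested further.

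Slc39a1 encodes ZIP1, a zinc importer found in most tissues, and lies on chr3:90248172-90253612 (plus strand). Of its 50-base stretches, 21.8% also occur in the pseudogene Slc39a1-ps, so reads could be split between the 2 and its level is uncertain. Libraries ranged from 29.7 to 31.8 CPM in female controls, 29.6 to 32.6 in females under stress, 24.9 to 31.2 in male controls and 29.7 to 31.0 in stressed males. Male controls reached lowest, through replicate 3, and all groups overlapped. Male and female controls differed by -0.11 (adjusted p = 0.353, edgeR), stressed and control males by 0.08 (adjusted p = 0.496), and stressed and control females by -0.0059, without a test.

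Slc39a14 encodes ZIP14, an importer of zinc, iron and manganese that is known to be induced in inflammation, and lies on chr14:70303469-70351425 (minus strand). Libraries ranged from 28.6 to 34.8 CPM in female controls, 27.0 to 34.4 in females under stress, 30.6 to 37.8 in male controls and 30.3 to 37.6 in stressed males. The groups overlapped in all comparisons. The stress difference was -0.02 in males (SE 0.08, adjusted p = 0.963, edgeR) and -0.05 in females (SE 0.08), and male controls differed from female controls by 0.06 (SE 0.08, adjusted p = 0.776).

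The metallothioneins lie side by side on the plus strand of chromosome 8 within 27.7 kb, Mt3 at chr8:94152607-94154146, Mt2 at chr8:94172664-94173568 and Mt1 at chr8:94179082-94180327. They share 0 stretches of 50 bases with other genes, and Mt2 shares 432 exon bases with Gm45774 on the opposite strand. All 3 varied more between libraries than the 6 transporters did, with coefficients of variation of 16.3% for Mt3, 12.7% for Mt1 and 10.6% for Mt2, against 4.79% to 8.78%.

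Mt1 stood at 121.7, 119.6, 131.0, 115.2 and 122.9 CPM in female controls and at 136.7, 124.0, 150.2, 100.6 and 124.4 CPM in stressed females. In males it stood at 90.8, 109.5, 100.4, 111.4 and 123.9 CPM in controls and at 96.8, 125.0, 116.3, 119.9 and 95.4 CPM in stressed mice. Stressed females held both the highest library of all and one of the lower ones, and group means were 122 ± 5.80 CPM (SD, n = 5) in female controls, 127 ± 18.3 in stressed females, 107 ± 12.4 in male controls and 111 ± 13.7 in stressed males. The stress difference was 0.04 in males (SE 0.09, adjusted p = 0.908, edgeR), with a 95% interval from -10.01% to 18.1%, and 0.05 in females (SE 0.10), without a test. Males were lower than females by 12.2% in controls (log2 difference -0.19, SE 0.10, adjusted p = 0.365) and by 12.7% in stressed mice (-0.20, SE 0.09, adjusted p = 0.704). Neither passed, and in both the sexes overlapped.

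Mt2 stood at 75.6, 78.8, 69.2, 62.5 and 72.8 CPM in female controls, and at 67.7, 68.4, 81.9, 51.0 and 63.6 CPM in stressed females. Male controls stood at 62.0, 64.8, 60.0, 64.6 and 72.0 CPM and stressed males at 61.8, 65.1, 68.2, 72.8 and 61.8 CPM. The stressed females held the highest and the lowest library of the 20, their replicates 3 and 4. Group means were 71.8 ± 6.29 CPM (SD, n = 5) in female controls, 66.5 ± 11.1 in stressed females, 64.7 ± 4.52 in male controls and 65.9 ± 4.66 in stressed males. The stress difference was 0.03 in males (SE 0.09, adjusted p = 0.960, edgeR), with a 95% interval from -10.3% to 15.5%, and -0.13 in females (SE 0.09), without a test. The female value rests on single libraries: it was -0.046 without stressed female 4 and -0.21 without stressed female 3. Male controls differed from female controls by -0.16 (SE 0.09, adjusted p = 0.417).

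Mt3 stood at 126.5, 124.9, 120.3, 101.6 and 92.8 CPM in female controls and at 131.2, 111.6, 127.5, 86.1 and 94.8 CPM in stressed females. Male controls stood at 109.0, 124.7, 99.7, 100.5 and 114.3 CPM, and stressed males at 87.4, 76.0, 118.0, 140.5 and 90.4 CPM. The stressed males alone spanned the range of all 20 libraries, from replicate 2 to replicate 4. Group means were 113 ± 15.1 CPM (SD, n = 5) in female controls, 110 ± 19.8 in stressed females, 110 ± 10.4 in male controls and 102 ± 26.3 in stressed males. The stress difference was -0.08 in males (SE 0.14, adjusted p = 0.860, edgeR), with a 95% interval from -22.7% to 15.1%, and -0.06 in females (SE 0.14), without a test. Male controls differed from female controls by -0.06 (SE 0.14, adjusted p = 0.897).

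**Figure D3:**
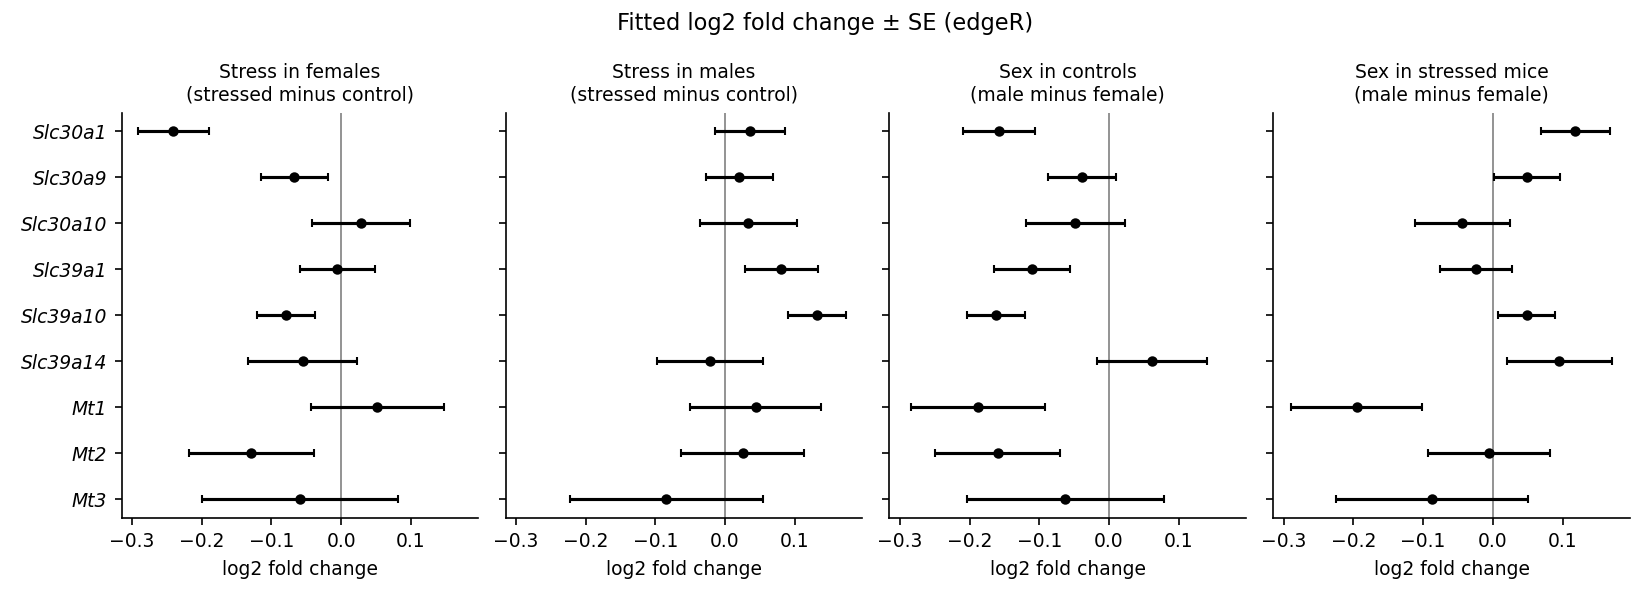
Fitted log2 fold changes (horizontal axes) of the 9 genes in 4 comparisons, with the SE as bars. The largest difference of stressed females is that of Slc30a1 (-0.24), the gene chosen for it, and in males the largest is that of Slc39a10 (0.13).

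By edgeR, 0 of the 9 genes were called for stress in males at an adjusted p under 0.05, where 0.00770% of all genes were called. DESeq2 called 1 of 9, Slc39a10, where it called 1.84% of all genes. At an unadjusted p under 0.05, 1 of 9 passed, Slc39a10, against 15.5% of all genes. The groups did not overlap for 1 of 9, again Slc39a10, against 4.30% of all genes. The 9 genes' median log2 difference was 0.033, beside -0.0067 over all genes, with 7 higher and 2 lower.

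Of the 8 genes tested between male and female controls, edgeR called 0, where 0.747% of all genes were called, and DESeq2 called 1, Slc39a10, where it called 1.91%. Slc39a10 was also the 1 of 8 with an unadjusted p under 0.05, against 15.3% of all genes. The groups did not overlap for 1 of 8, Slc39a10, beside 3.97% of all genes. They did not overlap for Slc30a1 either, which was chosen through the female controls and is only described. Over the 9 genes, 8 were lower in male controls and the median log2 difference was -0.11, beside 0.00025 over all genes. Both values include Slc30a1 and are a description. Markers of several cell types were also lower in male controls, 10 of 10 for oligodendrocytes, 9 of 10 for microglia and 8 of 10 for astrocytes, with 0 of these called. Their part in the members' differences was not tested as a group.

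In stressed mice, edgeR called 0 of the 8 genes between the sexes, where 0.0770% of all genes were called, and DESeq2 called 0 where it called 0.108%. Mt1 had an unadjusted p of 0.0488, against 7.06% of all genes with an unadjusted p under 0.05. The sexes overlapped for all 9, and did not for 1.27% of all genes. In the difference of the stress effects between the sexes, edgeR called 0 of 8, where 0% of all genes were called, and DESeq2 0, where it called 0.169%. Slc39a10 had an unadjusted p under 0.05 there, against 10.4% of all genes. In females, whose contrast chose Slc30a1, groups did not overlap for 1 of 9 genes, Slc30a1 itself, beside 1.22% of all genes. For that contrast edgeR called 0% of all genes.

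The rest of the zinc network was counted from fixed lists. Of 22 further genes, 16 were used: 5 of 7 exporters, 9 of 11 importers, and Mtf1 and Ap3d1 of 4 genes for buffering and sensing, MTF-1 being the zinc sensor and Ap3d1 a coat subunit for sorting vesicle proteins. By edgeR, DESeq2 and limma-voom alike, 0 of 16 were called in any of the 5 comparisons. Of all genes, edgeR called 0% to 0.747% in these comparisons and DESeq2 0.00770% to 1.91%, so 0 of 16 is near those shares. For stress in males, the edgeR fit gave 2 of 16 genes with an unadjusted p under 0.05, beside 15.5% of all genes, both with negative values: Slc39a13, encoding an importer of the secretory pathway, at -0.16 (adjusted p = 0.193), and Slc39a6, encoding ZIP6, the plasma membrane relative of ZIP10, at -0.20 (adjusted p = 0.253). Between the sexes in controls there were 0 such genes of 16, beside 15.3% of all genes. In stressed mice there were 2, beside 7.06% of all genes, Slc39a13 at a male minus female value of -0.21 (adjusted p = 0.477) and the vesicular exporter gene Slc30a4 at 0.14 (adjusted p = 0.649). The stress effects of the sexes were apart at an unadjusted p under 0.05 for 2 of 16 genes, beside 10.4% of all genes, Slc39a13 (-0.18, adjusted p = 0.473) and Slc30a4 (0.18, adjusted p = 0.459). In females the values with the smallest p were those of Slc39a12, an astrocyte-enriched importer gene, at -0.19, and Ap3d1 at 0.09, given as a description.

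Of 13 genes for iron, copper, manganese and magnesium handling, all 13 were used. In any comparison edgeR called 0 of them, where it called 0% to 0.747% of all genes. DESeq2 called 1 of 13, Cnnm2, in male against female controls (adjusted p = 0.0391), where it called 1.91% of all genes. Unadjusted edgeR p-values under 0.05 were found for 2 of 13 genes for stress in males, 3 between male and female controls, 1 between stressed males and females and 3 in the interaction, beside 15.5%, 15.3%, 7.06% and 10.4% of all genes. Cnnm2, which encodes a membrane protein of magnesium transport, stood at -0.27 (SE 0.07, adjusted p = 0.0768, edgeR) in male minus female controls and at 0.22 (SE 0.07, adjusted p = 0.134) for stress in males. Between male and female controls, the copper exporter gene Atp7a stood at 0.27 (adjusted p = 0.128) and the iron exporter gene Slc40a1 at -0.24 (adjusted p = 0.271). For stress in males, the magnesium carrier gene Slc41a1 stood at 0.13 (adjusted p = 0.299). In stressed mice the manganese and calcium pump gene Atp2c1 stood at 0.10 (adjusted p = 0.704). The stress effects of the sexes were apart by 0.31 for Cnnm2 (adjusted p = 0.335), 0.38 for Slc40a1 (adjusted p = 0.381) and -0.25 for Atp7a (adjusted p = 0.476). In females, Tfrc, encoding the transferrin receptor, stood at -0.20 and Atp7a at 0.19, given as a description.

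Whether members rose and fell together from library to library was asked in 18 relations, each over 20 libraries with group means removed, with two-sided permutation within groups and Benjamini-Hochberg adjustment over the 18. Mt1 and Mt2 varied together (r = 0.77, permutation p = 0.00047, adjusted 0.00846; rho = 0.71, permutation p = 0.00162, adjusted 0.0248), and r was positive in 4 of 4 groups. Without the 2 libraries farthest from the median of Mt1, r was 0.59 and no longer passed (adjusted permutation p = 0.117), so the call rests on those libraries. Mt2 and Mt3 also varied together (r = 0.66, permutation p = 0.00175, adjusted 0.0158; rho = 0.69, permutation p = 0.00276, adjusted 0.0248), and here too r without the 2 farthest libraries, 0.61, no longer passed (adjusted permutation p = 0.117). Mt1 and Mt3 did not pass (r = 0.46, permutation p = 0.0815, adjusted 0.367; rho = 0.49, permutation p = 0.0601, adjusted 0.271), and neither did Slc39a14 with Mt2 (r = -0.49, permutation p = 0.0462, adjusted 0.277; rho = -0.49, permutation p = 0.0446, adjusted 0.268).

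Slc30a1 was related to Mt1 and Mt2, which share MTF-1 with it, and neither relation passed. Slc30a1 gave r = 0.057 with Mt1 (permutation p = 0.840, adjusted 0.982; rho = -0.053, permutation p = 0.845, adjusted 0.905) and r = -0.16 with Mt2 (permutation p = 0.577, adjusted 0.975; rho = -0.25, permutation p = 0.328, adjusted 0.843). A score of 15 glucocorticoid-induced genes was related to Mt1, Mt2, Mt3, Slc30a1 and Slc39a14, and r ran from -0.24 to 0.13 over these 5 relations, with 0.970 as the lowest adjusted permutation p of r. That score was higher in male controls (0.19 ± 0.17, SD, n = 5) than in female controls (-0.19 ± 0.11). Of the 15 genes, 14 were higher and 4 were called by edgeR, where 0.747% of all genes were called. Mt1 and Mt2 were at -0.19 and -0.16 in the same comparison. For stress in females 13 of the 15 genes were higher (median 0.19, 0 called, where 0% of all genes were). Mt1 was at 0.05 and Mt2 at -0.13 there. For stress in males 11 of 15 were lower (median -0.23, 1 called, where 0.00770% of all genes were). Mt1 was at 0.04 and Mt2 at 0.03 there. The part of glucocorticoids in these values was not tested further. With a score of 10 astrocyte markers, r of the same 5 genes ran from -0.28 to 0.19, again with 0.970 as the lowest adjusted permutation p of r.

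The 5 genes most like Mt2 were Cby1 (r = 0.92), Fxyd1 (0.85), Rpl7a (0.83), Ndufa5 (0.83) and Sod1 (0.82). Mt1 came at rank 29 (0.77) and Mt3 at rank 240 (0.66). Their longest transcripts have 1147, 668, 1043, 875 and 3970 bases, against a median of 3585 bases over 12799 genes. Those of Mt2, Mt3 and Mt1 have 511, 536 and 1085 bases. An index of short transcripts, the mean log2 CPM of 408 genes whose longest transcript has at most 1000 bases, was therefore set beside the metallothioneins, after the likeness had been seen and as a description. Within groups r with the index was 0.92 for Mt3 (rho 0.90), 0.71 for Mt2 (rho 0.78) and 0.43 for Mt1 (rho 0.49). With the index removed by regression, r between Mt2 and Mt3 was 0.043 (rho 0.0015), and r between Mt1 and Mt2 was 0.73 (rho 0.55). The 2 libraries at the ends of the Mt3 range are also those at the ends of the index: stressed male 4 had the highest index of the 20 libraries (0.173) and stressed male 2 the lowest (-0.291).

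**Figure D4:**
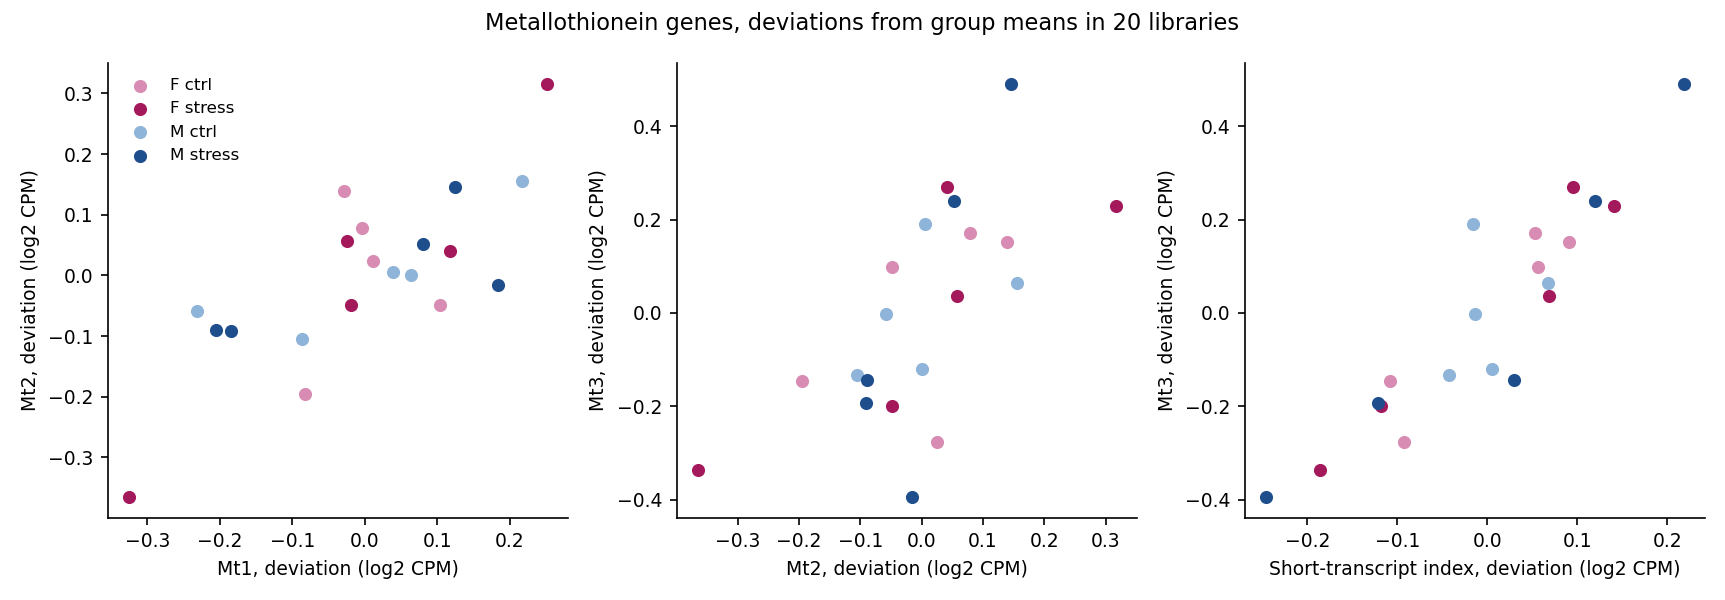
Deviations from group means in log2 CPM for 20 libraries, coloured by group: Mt2 against Mt1 (left), Mt3 against Mt2 (middle), and Mt3 against the index of short transcripts (right). The points rise from left to right in all 3 panels, with r = 0.77, 0.66 and 0.92.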

How the data were processed

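RNA-seq of 20 libraries was used, 5 in each of 4 groups, and groups were taken from the sample titles. The authors deposited 1 table of raw counts by gene symbol, not normalized. The kit was a stranded mRNA one, per the labels' protocols. STAR, featureCounts and mm10 are named per the submitters' processing notes. The annotation and the strand setting of the counting are not given in the sources used here, so reads of overlapping genes on opposite strands may not have been told apart. The lowest row total was 1002, so genes with few reads were not analysed here, and 0 columns were left over.

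Counts were fitted with edgeR 4.0.16 in R 4.3.3 (TMM, filterByExpr, which kept all 12988 genes, 1 mean per group over all 20 libraries, quasi-likelihood test, two-sided). P-values were adjusted by Benjamini-Hochberg over all 12988 genes, and genes under 0.05 were called. The common biological coefficient of variation was 8.83%. Every adjusted p comes from this test unless DESeq2 1.42.0 or limma-voom (limma 3.58.1) is named, or a permutation (100000 resamples within groups). Levels are CPM with TMM factors, and log2 CPM used a prior count of 2. Coordinates and lengths are from GENCODE M21 (GRCm38) and promoters from RefSeq. The fit was tested on simulated data.

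The members and gene lists were chosen with earlier results of these data known. Named genes are all members, up to 5 genes per list and comparison with the smallest unadjusted p under 0.05, and the 5 genes most like Slc30a1 and Mt2. The endothelial score as a covariate, the index of short transcripts and the relations to them were added after the data were seen. Replicate numbers were checked as pairs: of 30 pairs of same-numbered libraries, 5 had deviations correlated over 0.1, with r from -0.47 to 0.24, so the numbers were not used as pairs. Other normalizations, tools and filters, marker scores as covariates, the compared groups alone and each library left out in turn were tried as alternatives.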

Additional observations from a re-analysis of the deposited data

How the results depend on the processing

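The counts of genes called depended on the tool and on composition. For stress in males (1 gene) the count was 239 with DESeq2, 303 with the 2 groups alone, 4, 673 and 0 with the oligodendrocyte, astrocyte and endothelial scores as covariates, and 0 to 129 with 1 library left out (0 without stressed male 3 or 4, 129 without stressed male 5). For sex in controls (97 genes) it was 248 with DESeq2, 63 with limma-voom, 304 with the 2 groups alone, 316, 807 and 8 with the same 3 scores, and 32 to 214 with 1 library left out (32 without female control 5, 214 without female control 3). For sex in stressed mice (10 genes) it was 19 with the astrocyte score. For the interaction (0 genes) it was 22 with DESeq2, 3 with DESeq2 size factors in edgeR, 3 at a mean CPM of at least 10, 1, 13 and 62 with the striatal, oligodendrocyte and astrocyte scores, and 0 to 4 with 1 library left out (4 without female control 2, male control 1 or stressed female 4). For stress in females (0 genes) it was 1 with DESeq2 and 2 with the striatal score. With the replicate number as a block, sex in controls gave 48 genes and Slc39a10 an adjusted p of 0.135 (edgeR), and since the numbers do not pair the libraries this is no sign of a weaker effect.

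Over the alternatives other than the endothelial score and the left-out libraries, 420 of 441 member values kept their direction and, where tested, their side of the threshold, 4 passed it (Slc39a10, given above) and 17 turned in sign. With 1 library left out, 491 of 540 kept both and 49 turned, and with the endothelial score 32 of 45 did, 10 turned and the 3 of Slc30a1 given above moved. For stress in females, which carries no test, Slc30a10 turned to -0.023 and Slc39a1 to 0.0075 with the oligodendrocyte score, and Slc39a1 to 0.0086 and Slc39a14 to 0.058 with the endothelial score. For stress in males they were, with the striatal score, Slc30a1 -0.014, Slc30a10 -0.038 and Mt3 0.017, and with the endothelial score Slc30a1 -0.042, Slc30a9 -0.0067 and Mt3 0.073. For sex in controls they were Slc30a10 0.010 (striatal) and Slc30a9 0.0081 (endothelial). For sex in stressed mice Mt2 was 0.016 with limma-voom, 0.0018 with the replicate block, and 0.00039, 0.0032 and 0.034 with the striatal, astrocyte and endothelial scores. For the interaction, Slc30a10 was -0.0031 at a mean CPM of at least 10 and -0.055 (striatal), Slc39a14 -0.081 (striatal) and -0.19 (endothelial), Mt1 0.0090 (limma-voom), 0.0015 (striatal) and 0.074 (endothelial), and Mt3 0.080 (striatal), 0.032 (oligodendrocyte) and 0.31 (endothelial). The cause was not tested.

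With 1 library left out, stress in males ranged over -0.0014 to 0.036 for Slc30a9, -0.064 to 0.015 for Slc39a14, -0.012 to 0.10 for Mt1, -0.015 to 0.070 for Mt2 and -0.23 to 0.0038 for Mt3, and, with no turn, 0.0078 to 0.061 for Slc30a1 and 0.043 to 0.12 for Slc39a1. Stress in females ranged over -0.0046 to 0.076 for Slc30a10, -0.024 to 0.013 for Slc39a1, -0.014 to 0.13 for Mt1, -0.21 to -0.046 for Mt2 and -0.12 to 0.018 for Mt3. Sex in stressed mice ranged over -0.088 to 0.076 for Mt2 and -0.23 to 0.00063 for Mt3, and the interaction over -0.043 to 0.039 for Slc30a10, -0.0097 to 0.080 for Slc39a14, -0.082 to 0.053 for Mt1 and -0.17 to 0.063 for Mt3. Without the 2 farthest libraries, r was 0.59 for Mt1 with Mt2, 0.61 for Mt2 with Mt3, both no longer past the threshold (adjusted permutation p = 0.117), and -0.061 for Slc30a1 with Mt1, 0.15 for Mt3 and 0.17 for Slc30a1 with the glucocorticoid score. With the index of short transcripts removed, r of Mt2 with Mt3 was 0.043. With group means kept, r was 0.18 for Slc30a1 and 0.22 for Slc39a10 with Mt2, -0.18 for Mt1 and -0.56 for Slc30a1 with the glucocorticoid score (-0.24 within groups) and 0.046 for Slc30a1 with the astrocyte score. Depth limits the least expressed members in female control 4, whose Slc39a1 value rests on 79 reads.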
